A study of Mus musculus with 14 samples.

Results

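En1, En2, Gbx1, Gbx2, Emx1, Emx2, Otx1 and Otx2 are 4 pairs of paralogous homeobox genes, each pair encoding closely related DNA-binding transcription factors that pattern the embryonic brain. They were taken by name, with no threshold on a measured value, and make up 8 of the 21938 protein-coding genes on the assembled mouse chromosomes. All 8 were found in the annotation. For each gene, the H3K27me3 sites called in mouse embryo fibroblasts were located at its transcription start sites (TSSs), in its body and in the 50 kb on either side.

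The Engrailed factors En1 and En2 act in the midbrain and anterior hindbrain, and En1 is also known from the ventral limb ectoderm and from a lineage of skin fibroblasts. Otx2, needed for forebrain and midbrain, and Gbx2, needed for the anterior hindbrain, oppose each other at the boundary between midbrain and hindbrain. Emx1 and Emx2 act in the dorsal telencephalon, from which the cortex forms, and Emx2 also in the urogenital system, whereas Otx1 acts in cortex and sense organs and Gbx1 in ventral forebrain and spinal cord. H3K27me3 is the trimethylation of lysine 27 of histone H3 by Polycomb repressive complex 2, and it is typically laid down in wide domains over CpG-rich starts of developmental regulators in cell types that do not use them.

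The cells were immortalised mouse embryo fibroblasts (iMEF), per the study the clone NG3, in which exon 4 of the endogenous Ash2l had been deleted through a tamoxifen-inducible CreER and which live from human ASH2L fused to an FKBP tag (FKBP-HA2-ASH2L), brought in with a lentiviral construct. ASH2L is a subunit of the complexes that methylate lysine 4 of histone H3, and dTAG-13 leads to rapid degradation of the fusion protein. Control cells without dTAG-13 and cells exposed to it for 30 min, 2 h, 4 h, 8 h or 16 h gave 2 H3K27me3 libraries per group, 12 in all, beside 2 input libraries from control cells and from the 16 h treatment. All groups, controls included, carry the deletion and the fusion gene, and all come from 1 clone of a fibroblast line, so that no brain cell was examined.

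The authors combined the sites of all samples into 1 list of 153983 positions without a value for any library. Control and treated cells could therefore not be compared from it, the spread between the replicate libraries cannot be given, and the read depth behind a site is unknown. The values describe where a site was called in these cells. A stretch without a site had no call, which does not show that the mark was absent. The sites on the assembled chromosomes covered 5.93% of their length, their median width was 455 bp, and 0.944% of them were at least 10 kb wide.

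Of the 8 genes, 7 had a site within 1 kb of an annotated TSS, and 6 had there a site of at least 10 kb (En1, En2, Gbx1, Gbx2, Emx1 and Otx2). Otx2 has 10 TSSs and was counted through inner ones, while the site over its 5′ end measured 3707 bp. Emx2 had no site at a TSS or in its body, while Otx1 had narrow sites at its TSSs and a wider site over the coding exons. Across all protein-coding genes, 31.5% had a site within 1 kb of a TSS, 16.1% a site of at least 2 kb and 3.82% a site of at least 10 kb. The members thus exceeded the share over all genes by a wider margin for broad sites, 6 of 8, than for any site, 7 of 8. These are descriptions of chosen genes in 1 list and were not tested.

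The DNA just upstream of the TSS is shown for 3 genes, the Emx paralogs, which differed most in their sites, and En1, which had the most CG dinucleotides among the 5 members with an entry in the RefSeq promoter table (En1, Gbx2, Emx1, Emx2 and Otx2). Each sequence holds the 250 bases before the annotated 5′ end of the gene, read 5′ to 3′ along its plus strand from GRCm38.p6, and capitals mark CG, which is its own reverse complement. Those of Emx1 (chr6:85187188-85187437) and En1 (chr1:120602168-120602417) lay entirely inside H3K27me3 sites, whereas that of Emx2 (chr19:59458122-59458371) lay outside any site.
Emx1: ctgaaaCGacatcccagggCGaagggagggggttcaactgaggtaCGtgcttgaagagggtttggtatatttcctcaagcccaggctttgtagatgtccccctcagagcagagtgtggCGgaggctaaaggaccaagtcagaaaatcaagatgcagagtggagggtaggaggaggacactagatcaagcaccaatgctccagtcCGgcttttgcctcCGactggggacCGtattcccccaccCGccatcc
Emx2: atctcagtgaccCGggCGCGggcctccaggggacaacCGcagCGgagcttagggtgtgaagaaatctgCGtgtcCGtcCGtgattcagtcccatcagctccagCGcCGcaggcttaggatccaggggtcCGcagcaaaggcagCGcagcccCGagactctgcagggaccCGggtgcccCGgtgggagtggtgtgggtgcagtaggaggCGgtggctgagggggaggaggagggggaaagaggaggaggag
En1: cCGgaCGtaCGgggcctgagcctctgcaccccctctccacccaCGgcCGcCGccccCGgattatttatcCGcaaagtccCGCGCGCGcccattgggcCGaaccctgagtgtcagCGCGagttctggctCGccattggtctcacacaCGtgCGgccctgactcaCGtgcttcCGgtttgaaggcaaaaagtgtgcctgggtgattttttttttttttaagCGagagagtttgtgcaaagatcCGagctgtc

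The upstream sequence of Emx1 had 8 CG, that of Emx2 16 and that of En1 22. At least 1 CG was present in 92.4% of such sequences over all protein-coding genes, with a median of 8, and 70.6% of the genes had fewer than Emx2. Emx2 thus had more CG than its covered paralog. Among the other members, Otx2 had 9, Gbx1 15, Otx1 17, Gbx2 18 and En2 25.

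The base composition was taken over 500 bp upstream and downstream of the 5′ end. With a GC content from 50% and an observed over expected CpG ratio from 0.6 counted as CpG-rich, 7 of the 8 genes had a CpG-rich start. Otx1 missed it through a GC content of 49.8% at its 5′ end, with a CpG ratio of 0.776, and its other 2 TSSs had GC contents of 63.4% and 65.1%. Emx2 was CpG-rich, with a GC content of 62.3% and a ratio of 0.719, close to Emx1 with 62.5% and 0.665. Among the 9738 CpG-rich protein-coding genes, 25.5% had a site within 1 kb of a TSS, 14.3% a site of at least 2 kb and 4.33% a site of at least 10 kb. Most CpG-rich genes thus had no site at a TSS, and Emx2 was among them.

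**Figure D1:**
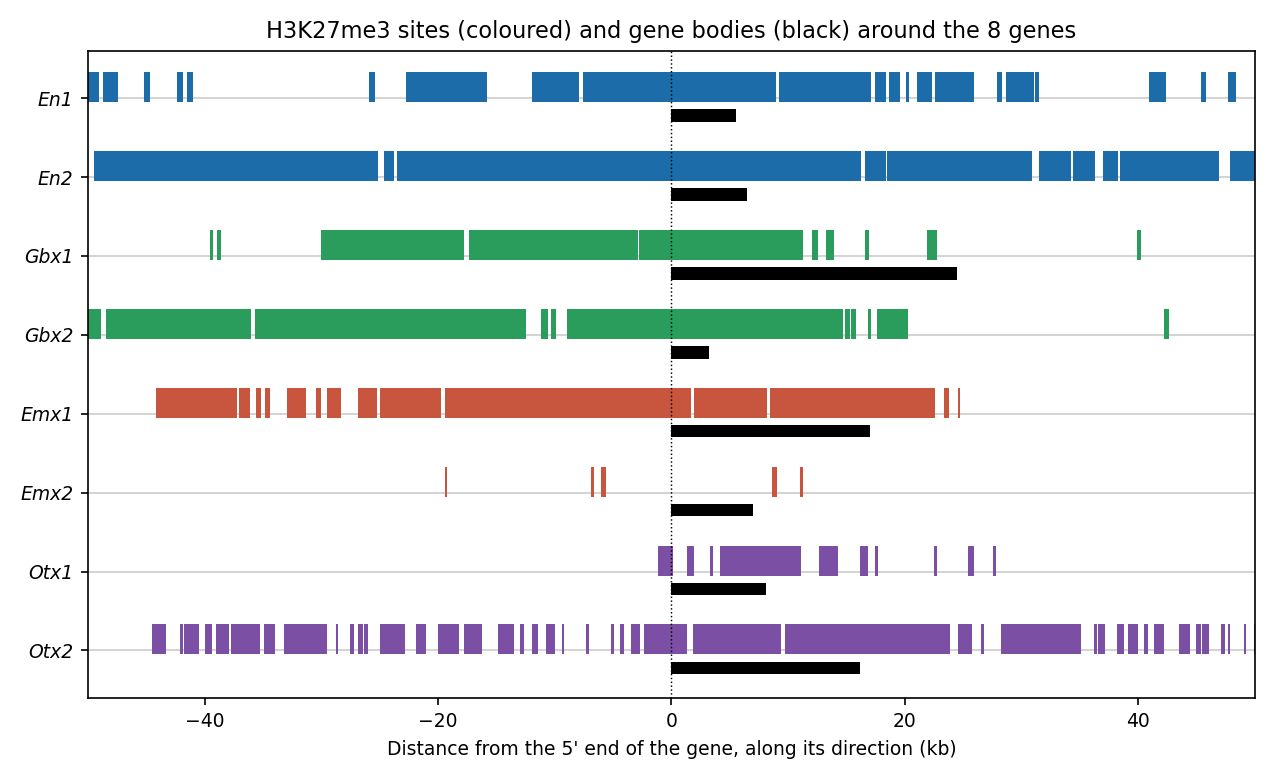
H3K27me3 sites (coloured blocks) within 50 kb of the 5′ end of each of the 8 genes, drawn to scale along the direction of the gene, with the gene body as a black bar. The x axis gives the distance from the 5′ end in kb. The 5′ end of 7 genes lies inside a block, and the surroundings of Emx2 hold 5 thin blocks of at most 387 bp.

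The Engrailed genes were each covered over their whole length by 1 site. En1 (ENSMUSG00000058665.8; chromosome 1, 120602418 to 120607992, plus strand, GRCm38) lay in a site of 16568 bp from 120594816 to 120611383, which began 7.602 kb before the TSS and ended 8.965 kb after it. En2 (ENSMUSG00000039095.8; chromosome 5, 28165694 to 28172166, plus strand) lay in a site of 39750 bp from 28142166 to 28181915, the widest at any of the 8 genes and number 34 by width in the whole list. The site of En2 was 6.14 times as long as the gene itself.

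The surroundings of the Engrailed genes differed more than the genes. Within the gene and 50 kb on either side, 94.3% of the bases at En2 were in sites, in 16 sites, and 50.2% at En1, in 25 sites. En2 had the rank 23 of 21938 protein-coding genes by this share and En1 the rank 829. Around En2, the gaps between sites were at most 894 bp. At En1, the widest gap measured 15.1 kb, from 41.0 to 25.9 kb upstream, and coverage fell to 17.1% in the stretch from 50 to 25 kb upstream and to 26.7% from 25 to 50 kb downstream. En1 was also the only gene whose surroundings had near-identical copies on sequences of the assembly outside the chromosomes, with 5 alignments of at least 1 kb and at least 95% identity, and their part in the result was not tested. Masked repeats made up 32.1% of its surroundings, the highest share among the 8 genes, and 17.6% at En2, the lowest.

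The Gbx genes were covered at their TSSs by broad sites, and more was covered upstream of them than downstream. Gbx2 (ENSMUSG00000034486.8; chromosome 1, 89927956 to 89931179, minus strand) lay entirely in a site of 23710 bp from 89916447 to 89940156, which covered both of its TSSs. Gbx1 (ENSMUSG00000067724.5; chromosome 5, 24502757 to 24527202, minus strand) had a site of 14027 bp from 24515951 to 24529977 over its TSS and 11.3 kb of its body. A gap of 71 bp separated it from the next site upstream, which was the widest around Gbx1, with 14472 bp from 24530049 to 24544520.

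Toward the 3′ end of Gbx1 the sites became narrow. There were 4 further sites in its body, of 531 bp (24514606 to 24515136), 724 bp (24513234 to 24513957), 388 bp (24510258 to 24510645) and 882 bp (24504414 to 24505295), so that 56.4% of the body was covered. Its coding exons were covered to 100%, in part by the site of 882 bp, and all exon bases to 52.3%. In the 50 kb upstream, 60.3% of the bases at Gbx1 and 93.9% at Gbx2 were in sites, compared with 0.73% and 31.4% in the 50 kb downstream. Over the whole surroundings this gave 35.6% for Gbx1 (rank 1844) and 63.8% for Gbx2 (rank 350).

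The Emx paralogs differed from each other in all measures of their sites. Emx1 (ENSMUSG00000033726.8; chromosome 6, 85187438 to 85204462, plus strand) had 3 sites in its body, of 21043 bp (85168081 to 85189123), 6235 bp (85189395 to 85195629) and 14131 bp (85195908 to 85210038). The first covered the 5′ end and reached 19.357 kb upstream, and the second covered the other TSS. Together they covered 96.8% of the body and all exons. Emx2 (ENSMUSG00000043969.4; chromosome 19, 59458372 to 59465357, plus strand) had no site at any of its 3 TSSs and none in its body. Over all protein-coding genes, 53.3% had no site in the body.

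Around Emx2, only 5 narrow sites were found. Their widths were 200, 253, 387, 384 and 207 bp, all below the median width of the list, and the nearest lay 4223 bp from a TSS. The widest of them, at 59452367 to 59452753, was upstream within Emx2os, the antisense transcript whose own 5′ end lies 263 bp inside Emx2 and which also had no site at its start. In all, 1.34% of the surroundings of Emx2 were covered (rank 14170), compared with 51.9% of those of Emx1 (rank 736). The surroundings of Emx2 held no unknown bases and no such near-identical copies, and masked repeats made up 23.6%, within the range of the other 7 genes. When 100 kb on either side were taken, the covered share at Emx2 was 5.52%, and the widest site measured 2407 bp.

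The Otx genes differed in the width of their sites. Otx2 (ENSMUSG00000021848.16; chromosome 14, 48657677 to 48673819, minus strand) has 11 annotated transcripts that start at 10 positions, all of them inside a site. Its 3 sites measured 3707 bp over the 5′ end (48672450 to 48676156), 7573 bp (48664412 to 48671984) and 14100 bp over the coding exons (48649968 to 48664067), and covered 94.99% of the body. Otx1 (ENSMUSG00000005917.15; chromosome 11, 21994764 to 22002897, minus strand) has 3 TSSs, of which 1, the 5′ end, lay inside a site.

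At Otx1, that site measured 1278 bp (22002721 to 22003998), and the next one, of 614 bp (22000960 to 22001573), reached into the windows of the other 2 TSSs. The start windows of Otx1 were covered to 54.6%, compared with 96.8% at Otx2. Farther into Otx1 lay a site of 249 bp (21999306 to 21999554) and one of 6951 bp (21991753 to 21998703), the widest around the gene, and the coding exons were covered to 100%. The mark was thus called at Otx1 mainly over the coding part and the 3′ end, and 61.2% of the body was covered. The widest site at its starts stayed below 2 kb, but joining sites less than 5 kb apart gave a domain of 29.0 kb there, and 7 of the 8 genes then had at least 2 kb at a TSS.

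Otx2 had by far the most sites around it, 51, which covered 61.6% of its surroundings (rank 409). In contrast to En2 with its few wide sites, 17 of these were over 1 kb and 1 over 10 kb, and 36 of the 50 gaps between them were under 1 kb. Otx1 had 10 sites that covered 11.7% (rank 6584), with 2.20% in the upstream and 13.2% in the downstream 50 kb. Otx1 thus stood between Emx2 and the 6 other genes.

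**Figure D2:**
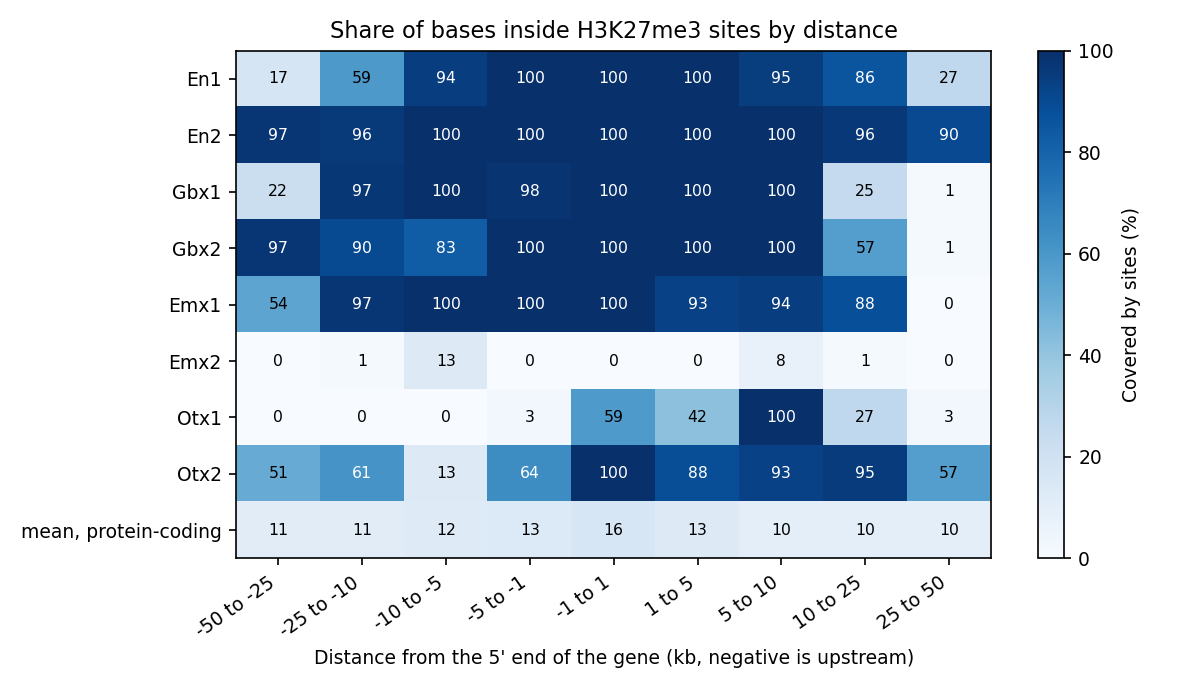
Share of bases inside H3K27me3 sites (%, colour and printed value) in 9 intervals of distance from the 5′ end (kb, negative upstream) for each of the 8 genes and, in the last row, as the mean over all protein-coding genes. Within 1 kb of the 5′ end, 6 genes are covered completely, Otx1 to 58.8% and Emx2 not at all, while the mean over protein-coding genes is 16.2%.

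By the covered share of the surroundings, the order was En2, Gbx2, Otx2, Emx1, En1, Gbx1, Otx1 and Emx2. At least 50% was covered at 5 of the 8 genes and at 3.81% of all protein-coding genes. En1 and Emx1 lay just above this limit. The count was 2 with only sites of at least 1 kb or with 100 kb on either side. It was 3 when the gene itself was left out and 4 with only sites of at least 500 bp. With 25 kb on either side it was 6, and it stayed at 5 when sites less than 1 kb or 5 kb apart were joined. The median over the 8 genes was 51.1%, compared with 3.81% over all protein-coding genes, 4.71% over those with a CpG-rich start, and 26.5% over the genes with a site of at least 2 kb at a TSS. Since the list has no values per library, the error of these shares is unknown and neighbours in this order cannot be ranked beyond it. Otx2 and Gbx2 (61.6% and 63.8%) and En1 and Emx1 (50.2% and 51.9%) were close together, and their places changed between settings. In all of 9 settings En2 came first, and Gbx1, Otx1 and Emx2 took the last places in this order.

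The median coverage of the 8 genes was highest within 1 kb of the 5′ end and lowest in the farthest intervals. Otx1 was instead most covered, to 100%, from 5 to 10 kb downstream, and at Otx2 only 13.1% was covered from 10 to 5 kb upstream. The median was 100% within 1 kb of the 5′ end, 75.4% from 25 to 10 kb upstream and 71.4% from 10 to 25 kb downstream. In the farthest intervals it was 36.7% upstream and 2.18% downstream. The median over all protein-coding genes was 0% in every interval except the farthest upstream, where it was 0.812%. Their mean was 16.2% within 1 kb, 11.2% in the farthest upstream and 10.1% in the farthest downstream interval.

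**Figure D3:**
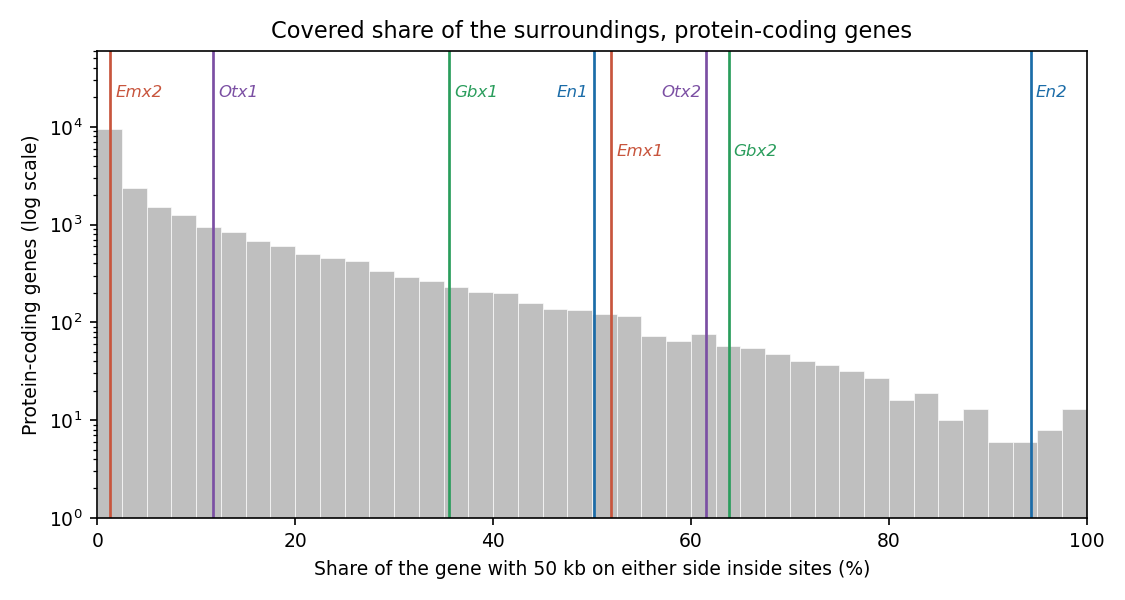
Number of protein-coding genes (y axis, log scale) by the share of the gene and 50 kb on either side that lies inside H3K27me3 sites (x axis, %), with the 8 genes as coloured lines. Emx2 falls in the lowest interval with most genes, and En2, at 94.3%, has a higher share than 99.9% of the genes.

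Where sites less than 1 kb apart were joined, the domain at the TSS measured 106.9 kb at En2, 51.6 kb at Emx1, 44.0 kb at Gbx1, 37.9 kb at En1, 32.0 kb at Otx2, 27.03 kb at Gbx2 and 1.28 kb at Otx1. Joining across less than 5 kb moved Otx2 to 139.2 kb, En2 to 138.1 kb and Gbx2 to 98.7 kb. The broken pattern around Otx2 and the gap upstream of Gbx2 were thus bridged by the wider rule, whereas Gbx1, with 52.8 kb, changed little.

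Where sites less than 1 kb apart were joined, several domains ended short of neighbouring genes, whereas that of En2 overlapped Cnpy1. The surroundings of the 8 genes held 10 other protein-coding genes in whole or in part, of which 4 had a site at a TSS. Around Gbx1, Asb10 and 4931409K22Rik lay inside its domain and had sites of 14472 and 12280 bp at their starts. Agap3, a GTPase-activating protein gene, and Abcf2, of the ABC family, lay outside it and had none, the latter with 8121 bp between the joined domain and the gene. Cnpy1, next to En2, had its start covered to 92.0%, with a widest site of 8517 bp there.

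With sites less than 1 kb apart joined, the domain of Emx1 ended 881 bp before the annotated 3′ end of Sfxn5, a gene for a mitochondrial transporter. The last site of this domain measured only 200 bp. The start of Sfxn5, 145.98 kb from that of Emx1, had a site of 456 bp. On the other side of Emx1, Spr, the gene for sepiapterin reductase, had no site. The site over the 5′ end of Otx1 ended 1829 bp from Ehbp1, and 0.225% of Ehbp1 was covered. Near Gbx2, neither Agap1 nor Asb18 had a site at its start, although 87.4% of the body of Asb18 was covered. The domain of Gbx2 ended 7865 bp from Asb18 with sites less than 1 kb apart joined. It overlapped Asb18 when sites less than 5 kb apart were joined. En1, Emx2 and Otx2 had no protein-coding neighbour within 50 kb.

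A further 18 annotated genes of other types lay in these stretches. The start of Otx2os1, a long non-coding RNA that overlaps Otx2 on the opposite strand, was covered to 100%, as was that of D130058E05Rik, which overlaps Gbx2. The sites carry no strand, so that the mark at these starts cannot be told apart from that at the homeobox genes.

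The likeness of 2 genes was measured as the bases covered in both divided by the bases covered in either, over 50 kb on either side of the 5′ end. Over the 28 pairs of members it ran from 0.0123 to 0.736, with a median of 0.402. The paralogs were not the most alike. Their likeness was 0.577 for Gbx1 and Gbx2, 0.520 for En1 and En2, 0.176 for Otx1 and Otx2 and 0.0225 for Emx1 and Emx2, whereas the highest value, 0.736, belonged to Gbx2 and Emx1. The measure depends on how much is covered at both genes and has no error, since there is 1 list.

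**Figure D4:**
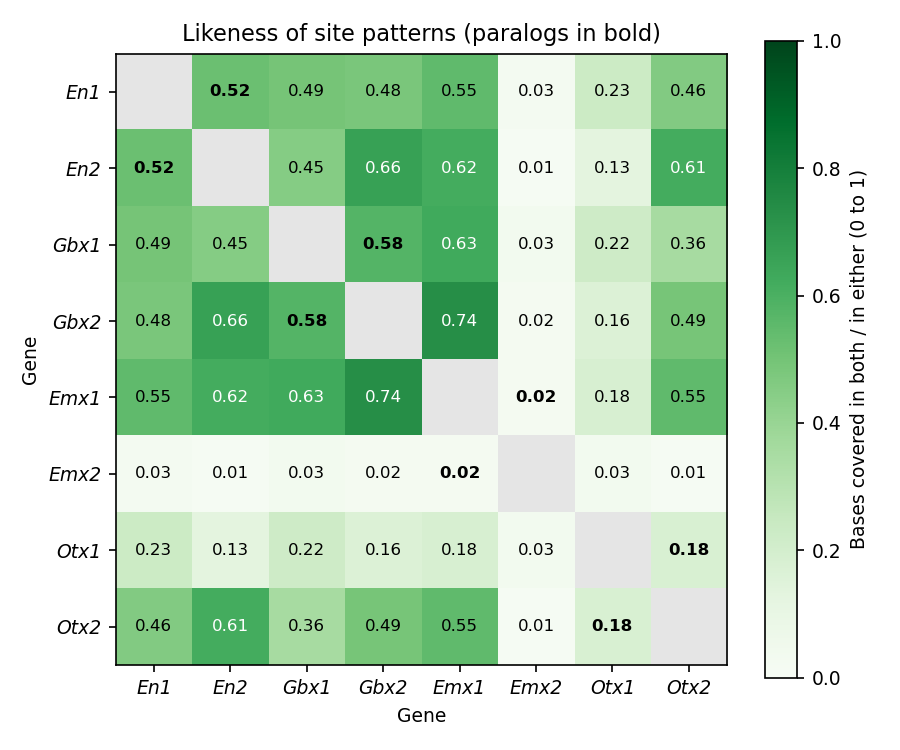
Likeness of the site patterns of each pair of the 8 genes (colour and printed value, 0 to 1), as bases covered in both divided by bases covered in either over 50 kb on either side of the 5′ end, with paralogs in bold. The row of Emx2 is close to 0 throughout, and the pair of Gbx2 and Emx1 has the highest value, 0.736.

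Among the protein-coding genes on other chromosomes, the pattern most like that of En2 was found at Hoxc5, a homeobox gene of a Hox cluster, with a likeness of 0.957. In the stretch compared, 95.6% was covered at En2 and 99.7% at Hoxc5, so that their likeness was high wherever the gaps lay. For other members the most alike genes were Tpbgl for Gbx2 (0.880), Car4, a carbonic anhydrase, for Gbx1 (0.729) and Neurod2, a neuronal bHLH factor, for En1 (0.683). Otx2 was most like Scn2b, a subunit of sodium channels (0.652), Otx1 most like Prr5l (0.557), and Emx2 most like Nfyb, a subunit of the factor NF-Y (0.269). The median likeness over all genes compared was at most 0.0336 for any member. These genes were the closest among 20299 to 21219 genes compared per member and were not tested.

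As a check of the cell type, 10 markers of fibroblasts were examined, of which 4 had a site at a TSS and 0 a site of at least 2 kb there. Over all protein-coding genes, 31.5% had a site at a TSS and 16.1% one of at least 2 kb. The count of 4 of 10 was thus not below the share over all genes. Of the 10 markers, 2 had a CpG-rich start. The median covered share of the surroundings of the markers was 0.476%. The highest values were 16.8% for Pdgfrb and 13.0% for Pdgfra, receptors for platelet-derived growth factors, and 4.58% for Twist1, a mesenchymal factor. Fn1, the gene for fibronectin, had 0.266%, and the collagen genes Col1a2 and Col3a1 had no site in their surroundings. The list gives no expression, so that these genes were checked for the mark only.

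Of 30 other genes of brain patterning, 28 had a site at a TSS, 25 one of at least 2 kb and 19 one of at least 10 kb, with a median covered share of the surroundings of 33.8%. Most covered were Pax2 with 93.3%, Lmx1b with 90.3% and Pax5 with 88.3%. Among the least covered were Tcf7l2 with 2.13% and Hesx1 with 3.02%. Irx3, a homeobox gene of the Iroquois family, had no site at a TSS, as was the case for Emx2. The surroundings of Irx3 were nevertheless covered to 29.8%, in 30 sites, compared with 1.34% in 5 sites at Emx2.

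Among 10 neuronal genes, 8 had a site at a TSS, 4 one of at least 2 kb and 1 one of at least 10 kb, and the median share was 4.81%. Rbfox3, Nefm and Nefl had the highest shares, with 65.0%, 43.9% and 41.8%, and Syt1, Map2 and Stmn2 the lowest, with 0.495%, 0.724% and 1.35%. Of 12 genes used in all cell types, 3 had a site at a TSS and 0 one of at least 2 kb. Over all protein-coding genes, 31.5% had a site at a TSS, 16.1% one of at least 2 kb and 3.82% one of at least 10 kb. Of the 12 genes, 9 were CpG-rich, and 3 of 12 was close to the 25.5% of all CpG-rich genes with a site at a TSS. The median covered share of the surroundings of the 12 genes was 2.20%. The lowest shares were 0.192% at Rplp0, 0.512% at Tbp and 0.566% at Hprt. The highest were 5.52% at Eef1a1, 5.54% at Gapdh and 7.01% at Polr2a. Emx2, with 1.34%, lay within the range of these 12 genes, and Otx1 above it.

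**Figure D5:**
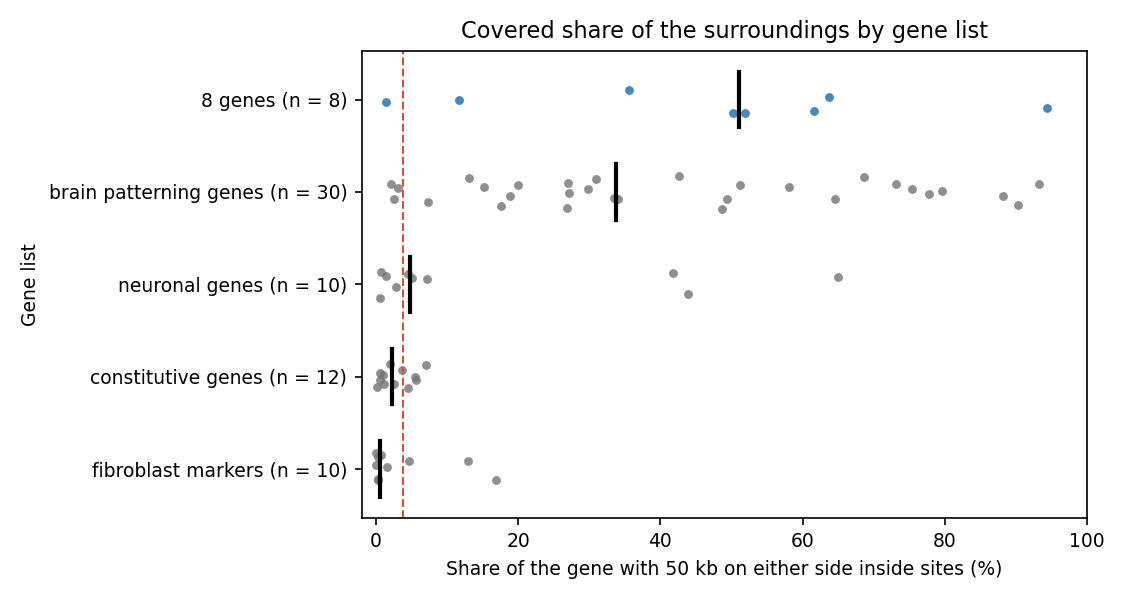
Covered share (%, x axis) of the gene and 50 kb on either side for the 8 genes and for 4 other lists, with 1 point per gene, a black bar at the median of each list and a dashed line at the median of all protein-coding genes, 3.81%. The medians are 51.1% for the 8 genes, 33.8% for brain patterning genes, 4.81% for neuronal genes, 2.20% for constitutive genes and 0.476% for fibroblast markers.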

How the data were processed

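ChIP-seq for H3K27me3 was done by the study in iMEF cells. Per its methods, the authors used Trim Galore for trimming, BWA for alignment to mm10 (GRCm38.p6) and samtools for filtering, merged replicates, brought samples to the lowest coverage and called broad peaks with MACS. Versions, the threshold and the rule for combining peaks are not given in the sources used here. The deposited list holds positions in bp only, with 0 columns of values per library, so no test was possible and depth is unknown.

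Starts were taken as 0-based and ends as excluded (the least width is 200 bp), and positions are printed from 1. Genes came from GENCODE M21, an earlier release than the study's. Windows of 1 kb around all transcript starts of a gene, its body and its surroundings (50 kb on either side) were intersected with the sites in Python 3.11.15 with numpy 2.4.6 and pandas 2.3.3, checked on simulated data. Near-identical copies were searched with minimap2 2.31-r1302. The 8 genes and the lists were chosen with earlier results of these data known. Named are all 8 genes, their sites at starts and in bodies, the widest site, protein-coding neighbours, the 3 highest and lowest genes of each list (others, such as Irx3, were picked after their values were seen) and the most alike gene on another chromosome. Some genes that this rule covers are not reported here. Alternatives were joined sites, least widths, other windows, coding transcripts only and starts counted from 1.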

Additional observations from a re-analysis of the deposited data

How the results depend on the processing

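Of the 11 other settings, every one that applied gave 7 of 8 genes with a site at a TSS, and 6 of 8 with a site of at least 2 kb there except that joining sites less than 5 kb apart gave 7. The median covered share of the surroundings, 51.1%, ranged from 36.2% with 100 kb on either side to 71.2% with 25 kb. Of 336 values of single genes, 84 changed by more than 1.5 times, 27 of them when sites less than 5 kb apart were joined and 0 when starts were read as counted from 1. With 100 kb on either side, Gbx1 had 21.3% and Otx1 6.85%, and Emx2 had 0% when only sites of at least 500 bp were kept. Over all protein-coding genes, the share with a site of at least 2 kb at a TSS was 25.5% with sites less than 5 kb apart joined, and the median covered share was 7.89% in that setting and 1.65% with only sites of at least 1 kb. The share of these genes with any site at a TSS was 20.1% with only sites of at least 1 kb. No paired analysis was possible because only pooled positions were listed. Neither the spread between replicates nor the depth behind a site can be given.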
